A study of Mus musculus with 20 samples.

Results

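The Frizzled genes (Fzd1 to Fzd10) encode the seven-pass membrane receptors for Wnt ligands, and the histone methylation at their promoters is described here. Members were chosen by name. Every H3K4me3 region annotated to a Frizzled gene within 3000 bp of a transcription start site (TSS) was taken, with every H3K4me1 region sharing at least 1 bp with it. This gave 12 H3K4me3 regions of 9 genes, among 15584 promoter H3K4me3 regions and 22343 H3K4me3 regions in all, and 14 H3K4me1 regions. No region carried the name of Fzd10. The family was proposed with its H3K4me3 values known, Fzd6 being noted for a deep fall, so its H3K4me3 values are given as a description without a test.

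A Frizzled receptor binds a Wnt through its extracellular cysteine-rich domain. Together with the co-receptors Lrp5 or Lrp6 it recruits Dishevelled and inhibits the Axin complex, so that β-catenin accumulates and acts with Tcf and Lef factors in the nucleus. Without Lrp5 or Lrp6 the same receptors feed into planar cell polarity and calcium signalling. By sequence the family falls into the Fzd1, Fzd2 and Fzd7 group, the Fzd5 and Fzd8 group, the Fzd4, Fzd9 and Fzd10 group, and the Fzd3 and Fzd6 group. H3K4me3 marks promoters and H3K4me1 marks enhancers and the flanks of promoters. Both are written by KMT2 enzymes, which work together with the core subunit Ash2l.

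The cells were immortalized mouse embryo fibroblasts (iMEF) from embryos of day 13 with floxed Ash2l alleles (Ash2l fl/fl) and a Cre-ER transgene, called KO cells. In +HOT samples the cells had received 5 nM 4-hydroxytamoxifen for 5 days, which activates the recombinase and removes exon 4 of Ash2l, and -HOT samples had received the ethanol vehicle. There were 2 lines, iMEF1 (KO1) and iMEF2 (KO2), and 1 library for each mark, line and condition. These 8 of the 20 libraries were used, and the 8 libraries of WT cells and the 4 input libraries were not analysed here, so an effect of HOT itself was not tested. The line served as the replicate and as the pair, with 2 pairs for each mark. Cells of a culture that lost the mark wholly and cells that all lost some of it cannot be told apart in such bulk samples.

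Values are reads per region, with the library of higher coverage scaled down to the other of its line, except for H3K4me1 of KO1, where both are raw counts. The reads within H3K4me3 regions summed to between 2441698 (KO1, +HOT) and 17708078 (KO2, -HOT), and those within H3K4me1 regions to between 6157647 and 9475514 per library. The median log2 ratio (+HOT over -HOT) of all tested H3K4me3 regions was -1.06 in KO1 and -1.63 in KO2, so a lower value was the rule in these cells. All 9 fibroblast marker genes had a promoter H3K4me3 region (-HOT values between 77.3 and 1517 in KO1, and between 1180 and 4435 in KO2). The endothelial, haematopoietic and neuronal markers had none, and the epithelial markers Epcam and Cdh1 had weak regions (-HOT values between 72.0 and 84.0 in KO1, and between 251 and 315 in KO2). At the promoter of Ash2l, which lies outside the deleted exon and does not check the deletion, H3K4me3 was 281 reads in +HOT and 469 in -HOT cells of KO1, and 976 in +HOT and 1839 in -HOT cells of KO2.

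The promoters of Fzd9, which had one of the smallest kept shares of H3K4me3 in the family, and of Fzd4, which kept the largest mean share, are shown as the 250 bases before the TSS (mm9 genome sequence, transcript starts of GENCODE vM1, 5′ to 3′ in the direction of the gene). The capitals mark CpG dinucleotides. They lie at chr5:135727101-135727350 (Fzd9, minus strand) and chr7:96552626-96552875 (Fzd4, plus strand).
Fzd9: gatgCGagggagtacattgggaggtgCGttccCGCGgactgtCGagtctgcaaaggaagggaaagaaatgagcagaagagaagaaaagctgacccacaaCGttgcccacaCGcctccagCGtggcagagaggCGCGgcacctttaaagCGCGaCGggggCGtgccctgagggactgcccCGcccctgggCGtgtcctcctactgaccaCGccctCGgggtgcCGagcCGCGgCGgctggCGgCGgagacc
Fzd4: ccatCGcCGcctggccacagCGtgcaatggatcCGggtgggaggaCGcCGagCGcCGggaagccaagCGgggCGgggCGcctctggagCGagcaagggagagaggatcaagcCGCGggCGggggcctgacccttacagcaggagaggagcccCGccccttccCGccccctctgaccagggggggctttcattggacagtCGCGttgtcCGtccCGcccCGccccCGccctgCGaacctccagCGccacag

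Both windows were rich in CpG. Fzd9 had 24 CpG dinucleotides and Fzd4 had 25, against a median of 9 over the windows of 22373 protein-coding genes. The observed over expected CpG ratio was 0.89 for Fzd9 and 0.75 for Fzd4, against a median of 0.50. The GC box (GGGCGG, either strand, overlapping matches counted) occurred 1 time in the Fzd9 window and 7 times in that of Fzd4, and 40.1% of all windows held it. It occurred 0 times at Fzd1, Fzd3 and Fzd8, 2 times at Fzd2 and Fzd6, 6 times at Fzd7 and 9 times at Fzd5. A link of this count to the H3K4me3 change was not tested. CCAAT on either strand occurred 1 time in each window, and 35% of all windows held it. Neither window held TATAAA, which 12.3% of all windows held. These matches describe letters, not bound sites.

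At Fzd2, Fzd5 and Fzd7 the H3K4me3 signal was called as a pair of regions, a broad one that runs over the gene and a narrow one upstream, with a gap just before the TSS. The sequences of the 3 gaps are given in the direction of each gene, with CCAAT and its reverse complement ATTGG in capitals. They lie at chr11:102465499-102465608 (Fzd2, plus strand), chr1:64784358-64784562 (Fzd5, minus strand) and chr1:59538744-59538881 (Fzd7, plus strand) of mm9.
Fzd2 gap: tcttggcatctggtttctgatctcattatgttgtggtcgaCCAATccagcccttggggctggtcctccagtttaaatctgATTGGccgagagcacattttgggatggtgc
Fzd5 gap: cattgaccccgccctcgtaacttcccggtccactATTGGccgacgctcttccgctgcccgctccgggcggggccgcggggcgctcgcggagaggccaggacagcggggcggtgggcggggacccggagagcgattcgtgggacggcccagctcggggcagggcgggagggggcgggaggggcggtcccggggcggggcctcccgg
Fzd7 gap: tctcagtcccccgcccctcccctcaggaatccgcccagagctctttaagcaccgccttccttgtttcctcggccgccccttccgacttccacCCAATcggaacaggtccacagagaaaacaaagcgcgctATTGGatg

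The gap covered 246 to 137 bp before the TSS at Fzd2, 238 to 34 bp at Fzd5 and 247 to 110 bp at Fzd7. CCAAT or its complement occurred 2 times in the gap of Fzd2, with 1 match on each strand, 1 time in that of Fzd5 and 2 times in that of Fzd7. Of all 22373 promoters, 14.6% held such a match at the offset of the Fzd2 gap, 30.5% at that of Fzd5 and 18.5% at that of Fzd7. This motif was chosen after the gap sequences had been seen.

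At all 12 regions, and in both lines, the H3K4me3 value of +HOT cells was below that of -HOT cells, although 6 of the 12 lay above the median change of all regions. Of the 13527 tested promoter regions, 13519 had a mean log2 ratio below 0. The 6 genes with a promoter region over 3000 bp (Fzd1, Fzd2, Fzd4, Fzd5, Fzd7 and Fzd8) kept between 47.5 and 69.6% of the -HOT value in KO1 and between 36.5 and 44.7% in KO2. The 3 genes with a narrower promoter region (Fzd3, Fzd6 and Fzd9) kept between 15.3 and 38.1% in KO1 and between 9.0 and 19.4% in KO2. The ranges of these 9 genes did not overlap in either line, but the width classes of the whole series did. The quartiles of the mean log2 ratio were -1.96 and -0.99 in promoter regions of more than 1000 and up to 2000 bp. They were -1.26 and -0.815 in those of more than 3000 and up to 4000 bp. Over the 9 genes the median of the mean log2 ratio was -1.05. It was -1.19 over the 12214 genes tested with 1 promoter region each, and -1.25 over all 13527 tested promoter regions. When the region whose centre lies nearest to a TSS stood for each gene, the median over the 9 genes was -1.87, with no value over all genes given beside it. In the limma fit across all regions 12 of 12 members fell (adjusted p under 0.05), as did 86.5% of the 16129 regions tested. This count is printed as a description, since the H3K4me3 contrast entered the choice of the family.

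**Figure D1:**
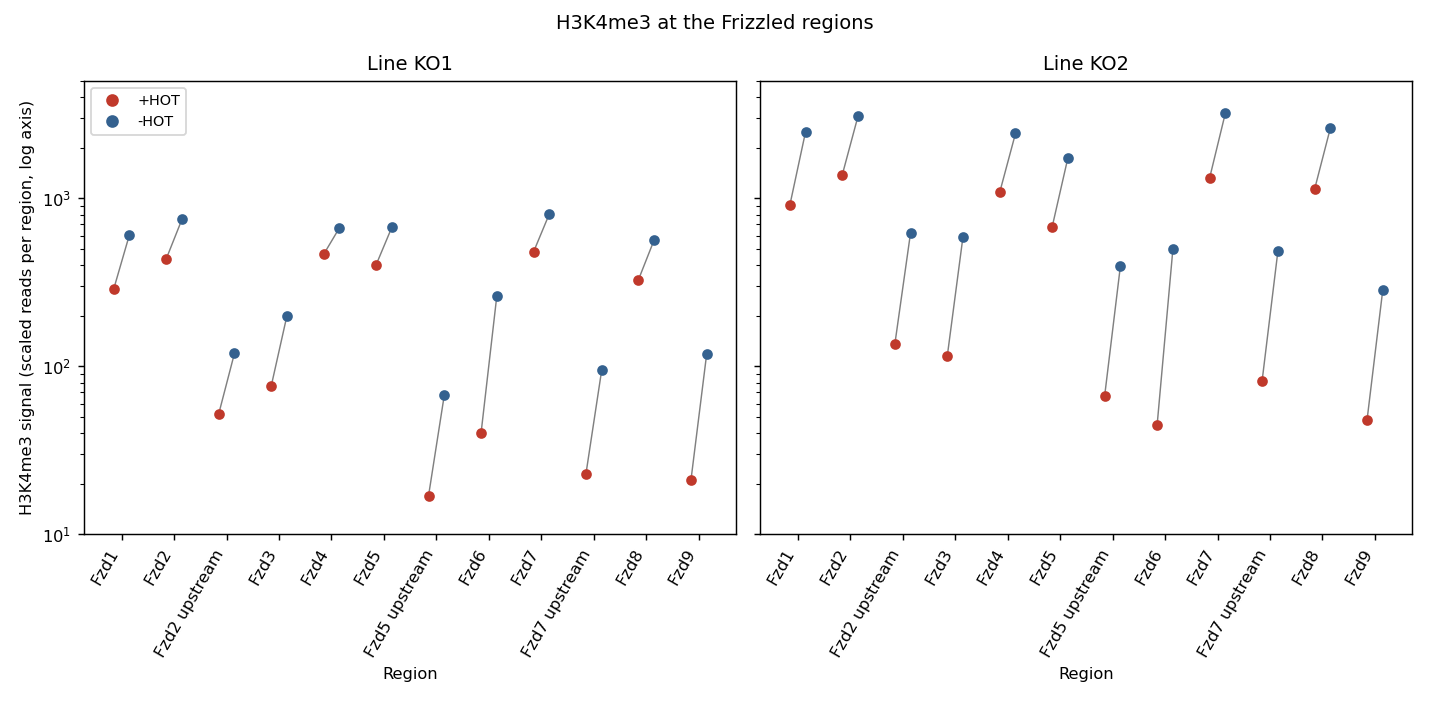
H3K4me3 signal (scaled reads per region, log axis) at the 12 Frizzled regions in KO1 and KO2, with +HOT in red, -HOT in blue and a line joining the 2 libraries of a line. All 12 red points lie below their blue partner before any centring, and the steepest line in each panel belongs to Fzd6, which kept 15.3% in KO1 and 9.0% in KO2.

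Fzd1, Fzd2 and Fzd7 are close relatives that signal mainly through β-catenin, with Fzd2 and Fzd7 also acting in planar polarity. All 3 are intronless genes covered by a broad H3K4me3 region that held their whole coding sequence. The Fzd7 region (chr1:59538882-59543701, -109 to 4710 bp from the TSS) had 480 reads in +HOT and 806 in -HOT cells of KO1, and 1325 in +HOT and 3224 in -HOT cells of KO2. At Fzd2 (chr11:102465609-102469583, -136 to 3838 bp) the values were 436 in +HOT and 750.2 in -HOT cells of KO1, and 1385 in +HOT and 3096 in -HOT cells of KO2. At Fzd1 (chr5:4754478-4759213, -997 to 3738 bp) they were 289 in +HOT and 608 in -HOT cells of KO1, and 912 in +HOT and 2498 in -HOT cells of KO2. The mean log2 ratio was -1.01 at Fzd7, -0.97 at Fzd2 and -1.26 at Fzd1, which kept the smallest share among the broad regions in both lines (47.5% in KO1 and 36.5% in KO2).

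Fzd5, needed in the mouse for yolk sac vessels and eye development, and its relative Fzd8 bind many Wnts. Each has its whole coding sequence in 1 exon, and this lay inside the broad region. Fzd5 (chr1:64780873-64784357, -33 to 3451 bp) had 402 reads in +HOT and 673 in -HOT cells of KO1, and 679 in +HOT and 1750 in -HOT cells of KO2. Fzd8 (chr18:9211623-9215463, -1231 to 2609 bp) had 328 in +HOT and 567 in -HOT cells of KO1, and 1134 in +HOT and 2616 in -HOT cells of KO2. The mean log2 ratio was -1.05 at Fzd5 and -0.997 at Fzd8.

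Fzd4 is the receptor for Norrin and is required for retinal vessels, and Fzd9 is known from the nervous system and bone. Fzd4 (chr7:96551696-96555384, -1180 to 2508 bp) had 464 reads in +HOT and 667 in -HOT cells of KO1, and 1089 in +HOT and 2436 in -HOT cells of KO2, and the share kept was the largest of the family in KO1 (69.6%). In KO2 it kept 44.7%, as Fzd2 did. Its region also holds the TSS of Tmem135, a gene on the opposite strand, and the reads cannot be divided between the 2 genes. Fzd9 (chr5:135726203-135727492, -392 to 897 bp) had 21 reads in +HOT and 119 in -HOT cells of KO1, and 48 in +HOT and 286 in -HOT cells of KO2. It kept 17.7% in KO1 and 16.8% in KO2. Fzd9 is intronless like Fzd1, Fzd2, Fzd7 and Fzd8, but its region was narrow (1290 bp) and covered 39.2% of its coding sequence. For Fzd10, the remaining member of the group and also intronless (TSS at chr5:129106719), the nearest H3K4me3 region lay 406339 bp away and the nearest H3K4me1 region 399868 bp away.

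Fzd3, which guides axons and closes the neural tube in the mouse, and Fzd6, which orients mouse hair follicles, act in planar polarity. Each has 7 exons, and neither H3K4me3 region reached coding sequence. Fzd6 (chr15:38837197-38838516, -682 to 637 bp) had 40 reads in +HOT and 262 in -HOT cells of KO1, and 45 in +HOT and 500.0 in -HOT cells of KO2. The log2 ratio was -2.68 in KO1 and -3.45 in KO2, and their mean of -3.06 was the 13th lowest of the 13527 tested promoter regions (55th in KO1 and 39th in KO2). The region thus ranked near the bottom of the series without being the lowest under the read minimum used here. It also holds the TSS of Gm17265, a long noncoding RNA gene on the opposite strand. Fzd3 (chr14:65880147-65881932, -632 to 1153 bp) had 76 reads in +HOT and 200 in -HOT cells of KO1, and 115 in +HOT and 593 in -HOT cells of KO2, with a mean log2 ratio of -1.87.

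The narrow upstream regions of Fzd2, Fzd5 and Fzd7 kept a smaller share than the broad region of the same gene in both lines. At Fzd2 the upstream region (chr11:102463623-102465498) had 52 reads in +HOT and 119 in -HOT cells of KO1, and 135 in +HOT and 623 in -HOT cells of KO2, so that 43.6% was kept in KO1 and 21.7% in KO2, against 58.1 and 44.7% over the gene. At Fzd5 (chr1:64784563-64785864) it had 17 in +HOT and 67.5 in -HOT cells of KO1, and 67 in +HOT and 397 in -HOT cells of KO2, with 25.2% kept in KO1 and 16.9% in KO2, against 59.7 and 38.8% over the gene. At Fzd7 (chr1:59537510-59538743) it had 23 in +HOT and 95.3 in -HOT cells of KO1, and 82 in +HOT and 483 in -HOT cells of KO2, with 24.1% kept in KO1 and 17.0% in KO2, against 59.5 and 41.1% over the gene. The share kept was thus smaller before the TSS than over the gene at each of the 3 genes.

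Over the whole series, regions up to 2000 bp wide also had the lower ratios. Among all promoter regions tested, the median of the mean log2 ratio was -1.88 in the 1897 regions up to 1000 bp. It was -1.42 in the 5448 regions of more than 1000 and up to 2000 bp. Above that it was similar, with -1.03 in the 4283 regions of more than 2000 and up to 3000 bp. The median was -0.98 in the 1321 regions of more than 3000 and up to 4000 bp, and -1.01 in the 578 regions over 4000 bp. The 6 broad Frizzled regions lay within their width classes. Between 26.1% (Fzd1) and 71.1% (Fzd4) of the regions of the same class had a lower ratio. In the class of more than 1000 and up to 2000 bp, 2 regions were lower than Fzd6, 4.44% were lower than Fzd9, 29.2% were lower than Fzd3, and 11.6, 13.1 and 37.5% were lower than the upstream regions of Fzd7, Fzd5 and Fzd2. Relative to the median log2 ratio of all regions in each line, the broad regions were at 0.08 (Fzd1) to 0.50 (Fzd4), and Fzd3 was at -0.53, Fzd9 at -1.15 and Fzd6 at -1.72.

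**Figure D2:**
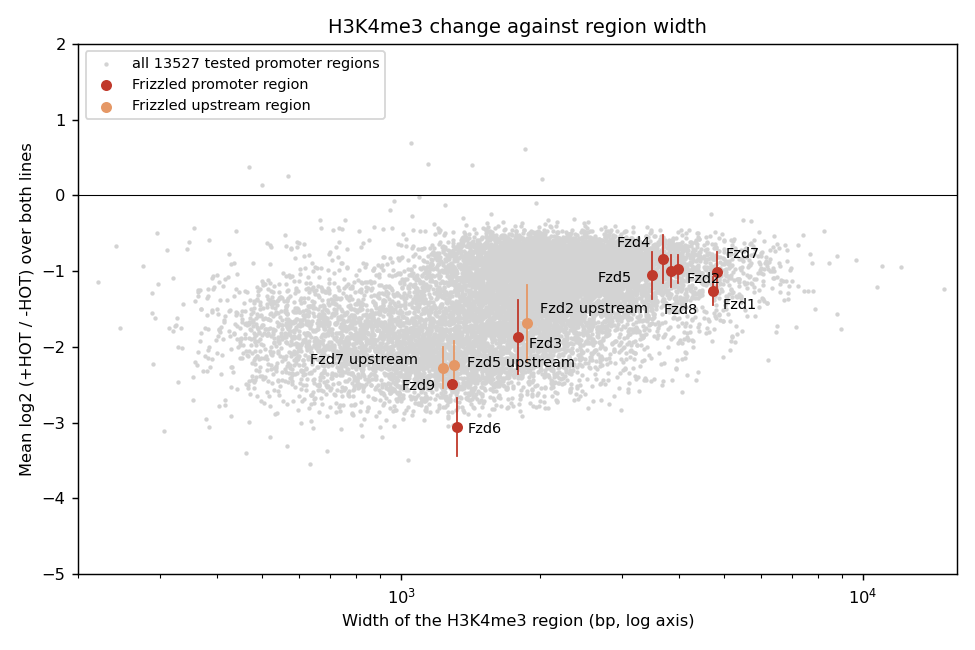
Mean log2 ratio of H3K4me3 (+HOT over -HOT, both lines) against the width of the region (bp, log axis), for all 13527 tested promoter regions in grey, the Frizzled promoter regions in red and the upstream regions in orange. A vertical line joins the values of KO1 and KO2. The broad regions lie among the grey points of their width, and Fzd6 at -3.06 lies at the lower edge.

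The narrow promoter regions had observed over expected CpG ratios of 0.97 (Fzd3), 0.92 (Fzd9) and 0.77 (Fzd6), while the 6 broad regions had ratios from 0.64 (Fzd4) to 0.72 (Fzd8), and the upstream regions of Fzd2, Fzd5 and Fzd7 had 0.39, 0.49 and 0.63. The median over all tested promoter regions was 0.62. The part of base composition in the H3K4me3 change was not tested.

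Per kb of region, the order of the genes changed with treatment. In -HOT cells of KO1 Fzd6 had the highest H3K4me3 level of the family, 198 reads per kb, close to Fzd5 (193), Fzd2 (189) and Fzd4 (181). In -HOT cells of KO2 Fzd2 was highest (779 reads per kb), Fzd6 had 379 and Fzd9 was lowest (222). In +HOT cells Fzd6 had 30.3 reads per kb in KO1, where only Fzd9 was lower (16.3), and 34.1 reads per kb in KO2, the lowest of the family. Fzd4 was highest in +HOT cells of KO1 (126 reads per kb), and Fzd2 in +HOT cells of KO2 (348). Neighbours such as Fzd4, Fzd7 and Fzd8 changed places between the lines and cannot be ranked. Fzd3, Fzd6 and Fzd9 were the 3 lowest genes in +HOT cells of both lines.

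The genes with the values most like those of Fzd6 were Tmem200b, Lypd6 and Zdhhc2, with Euclidean distances of 0.55, 0.64 and 0.68 over log2 values of the 4 H3K4me3 libraries, among 12360 genes. Tmem200b had 59 reads in +HOT and 266 in -HOT cells of KO1, and 43 in +HOT and 507 in -HOT cells of KO2. No other Frizzled gene was among the 3.

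H3K4me1, measured in other libraries than those that entered the choice of the family, was tested. It was higher in +HOT cells in 6 regions, at Fzd1, Fzd2, Fzd3, Fzd4 and Fzd8. At Fzd1 and Fzd3 the read minimum given below favoured a rise. Of the 14 regions, 9 had values in both lines and 8 passed the minimum of more than 20 reads. Of these 8, 6 rose at an adjusted p under 0.05 in limma, 2 missed it, and all 8 log2 ratios were above 0. In 2 of the 8, those of Fzd3 (both lines) and of Fzd1 just downstream of the TSS (KO2), the minimum was met through +HOT cells alone, and 4 of the other 6 rose. Among all 14779 tested H3K4me1 regions that overlap a promoter H3K4me3 region 66.1% rose and 2.94% fell, and among all 78691 tested regions 14.8% rose and 2.57% fell. The median log2 ratio of all tested H3K4me1 regions was 0.30 in KO1, where both libraries are raw counts, and 0.08 in KO2. The count of 6 is a description of the regions that met the minimum, not of all 14.

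The highest ratios were found over or just downstream of the TSS, inside the broad H3K4me3 regions. The Fzd2 region at chr11:102466129-102468077 (384 to 2332 bp from the TSS) had 178 reads in +HOT and 30 in -HOT cells of KO1, and 262 in +HOT and 32 in -HOT cells of KO2. This was 5.93-fold higher in KO1 and 8.18-fold higher in KO2, with a log2 ratio of 2.76 ± 0.24 (SE, 2 pairs, adjusted p = 1.3e-06). At Fzd1 (chr5:4756402-4757922, 294 to 1814 bp) there were 80 in +HOT and 21 in -HOT cells of KO1, and 110 in +HOT and 19 in -HOT cells of KO2, with a log2 ratio of 2.18 ± 0.25 (adjusted p = 1.02e-05). At Fzd8 (chr18:9211728-9214918, -1126 to 2064 bp) there were 166 in +HOT and 53 in -HOT cells of KO1, and 250 in +HOT and 48 in -HOT cells of KO2, with a log2 ratio of 1.99 ± 0.25 (adjusted p = 2.84e-05). At Fzd4 (chr7:96551953-96554577, -923 to 1701 bp) there were 153 in +HOT and 53 in -HOT cells of KO1, and 215 in +HOT and 70 in -HOT cells of KO2, with a log2 ratio of 1.56 ± 0.24 (adjusted p = 0.00015). At each of these 4 genes both +HOT values were above both -HOT values, in regions named here for their high ratios. The share of all regions with such a separation was not counted. Of the tested H3K4me1 regions that overlap a promoter H3K4me3 region, 66.1% rose.

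**Figure D3:**
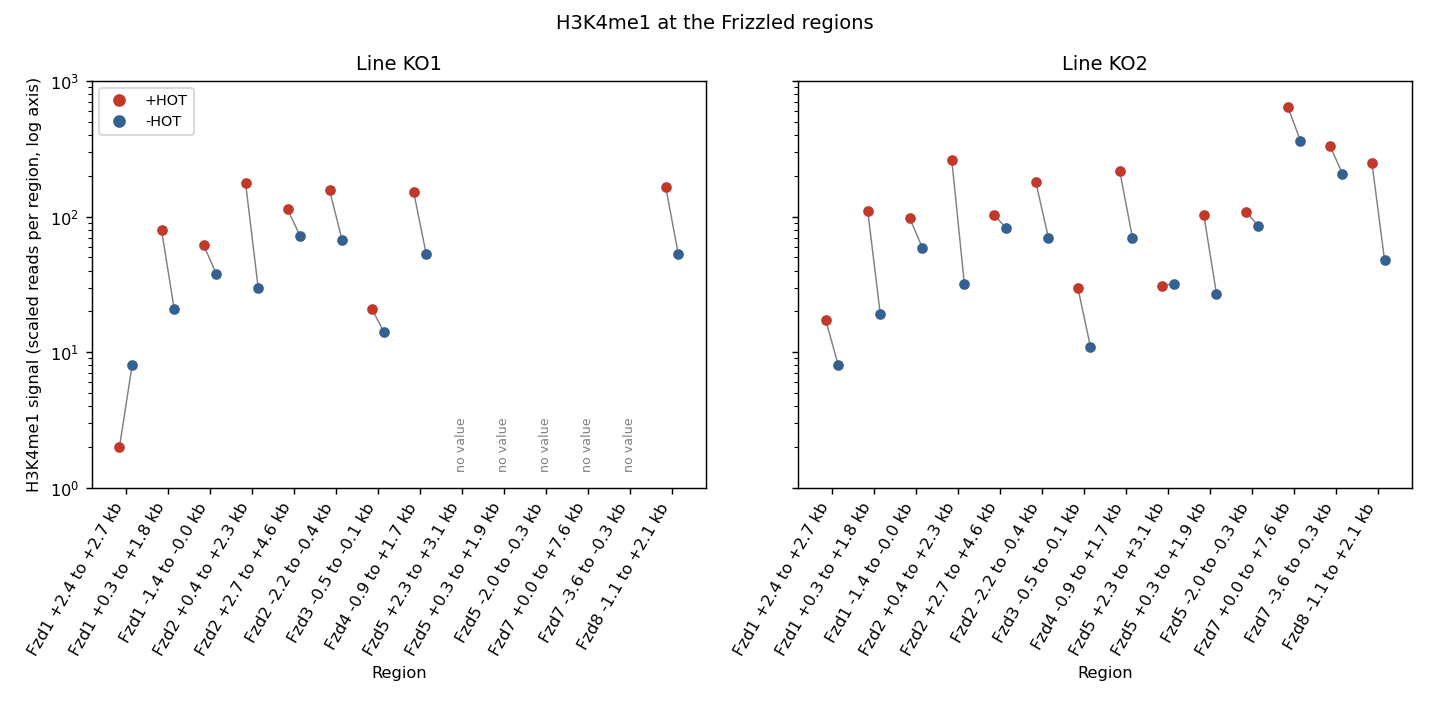
H3K4me1 signal (scaled reads per region, log axis) at the 14 regions that overlap Frizzled H3K4me3 regions, labelled by gene and distance from the TSS, with +HOT in red and -HOT in blue. The longest upward steps are those of Fzd2 and Fzd1 just downstream of the TSS (5.93-fold and 3.81-fold in KO1), and the 5 regions of Fzd5 and Fzd7 have values in KO2 only.

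Upstream of the TSS and farther downstream the ratios were smaller. The upstream region of Fzd2 (chr11:102463496-102465384, -2249 to -361 bp) had 156 reads in +HOT and 67 in -HOT cells of KO1, and 180 in +HOT and 70 in -HOT cells of KO2, and rose with a log2 ratio of 1.28 ± 0.24 (adjusted p = 0.000898, and 0.056 with no read minimum). The upstream region of Fzd1 (chr5:4758230-4759635, -1419 to -14 bp) had 62 in +HOT and 38 in -HOT cells of KO1, and 97.3 in +HOT and 59 in -HOT cells of KO2, with a log2 ratio of 0.70 ± 0.24 that missed the threshold (adjusted p = 0.0523) and passed it in 4 alternatives (adjusted p from 0.00528 to 0.0361). The region at the 3′ end of Fzd2 (chr11:102468400-102470324, 2655 to 4579 bp) had 113 in +HOT and 72 in -HOT cells of KO1, and 104 in +HOT and 82 in -HOT cells of KO2, with a log2 ratio of 0.49 ± 0.24 (adjusted p = 0.202). At Fzd3 a region of 406 bp before the TSS (chr14:65881425-65881830) had 21 in +HOT and 14 in -HOT cells of KO1, and 30 in +HOT and 11 in -HOT cells of KO2. It rose with a log2 ratio of 0.96 ± 0.26 (adjusted p = 0.0144), on few reads, and the call was lost in 6 alternatives (adjusted p from 0.137 to 0.67). This Fzd3 region met the read minimum through +HOT cells alone in both lines, which favours a rise.

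For Fzd5 and Fzd7 the KO1 values of H3K4me1 could not be used, since 5615 regions of chromosome 1 between 19197749 and 145960211 hold fill values in that table. Only KO2 is given, without a test. The Fzd5 region just downstream of the TSS (273 to 1922 bp) had 103 reads in +HOT and 27 in -HOT cells, that before the TSS (-1953 to -282 bp) had 109 in +HOT and 85 in -HOT cells, and that farther downstream (2263 to 3127 bp) had 30.9 in +HOT and 32 in -HOT cells. At Fzd7, a region of 7563 bp over the gene and beyond (16 to 7578 bp) had 645 in +HOT and 362 in -HOT cells, and a region before the TSS (-3636 to -302 bp) had 334 in +HOT and 207 in -HOT cells. At Fzd5 the order was thus that of Fzd2, with the highest ratio (3.8-fold) just downstream of the TSS.

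Per kb, the H3K4me1 region just downstream of the TSS had the lowest value of its gene in -HOT cells at Fzd1, Fzd2 and Fzd5. At Fzd2 the downstream region had 91.3 reads per kb in +HOT and 15.4 in -HOT cells of KO1, and 134 in +HOT and 16.4 in -HOT cells of KO2. The upstream region of Fzd2 had 82.6 in +HOT and 35.5 in -HOT cells of KO1, and 95.3 in +HOT and 37.1 in -HOT cells of KO2. At Fzd1 the downstream region had 52.6 in +HOT and 13.8 in -HOT cells of KO1, and 72.3 in +HOT and 12.5 in -HOT cells of KO2, and the upstream region had 44.1 in +HOT and 27.0 in -HOT cells of KO1, and 69.2 in +HOT and 42.0 in -HOT cells of KO2. At Fzd5, in KO2, the downstream region had 62.3 in +HOT and 16.4 in -HOT cells, and the upstream region had 65.2 in +HOT and 50.8 in -HOT cells. In +HOT cells the downstream region was thus above the upstream one at Fzd1 and Fzd2 in both lines, and not at Fzd5. In -HOT cells it was below the upstream one at all 3 genes.

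Fzd6 and Fzd9 had no H3K4me1 region overlapping their H3K4me3 region. Of all tested promoter regions 88.8% overlapped one, as did 87.1% of those up to 3000 bp wide. The nearest H3K4me1 region to Fzd6 lay 5504 bp upstream (chr15:38831148-38832375), with 113 reads in +HOT and 78 in -HOT cells of KO1, and 84.5 in +HOT and 89 in -HOT cells of KO2 (log2 ratio 0.23, adjusted p = 0.611). The nearest to Fzd9 lay 12618 bp upstream. The 2 genes that kept the smallest share of H3K4me3 were thus the 2 members with a promoter region and no called H3K4me1 there. H3K4me1 below the level at which a region is called was not measured.

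**Figure D4:**
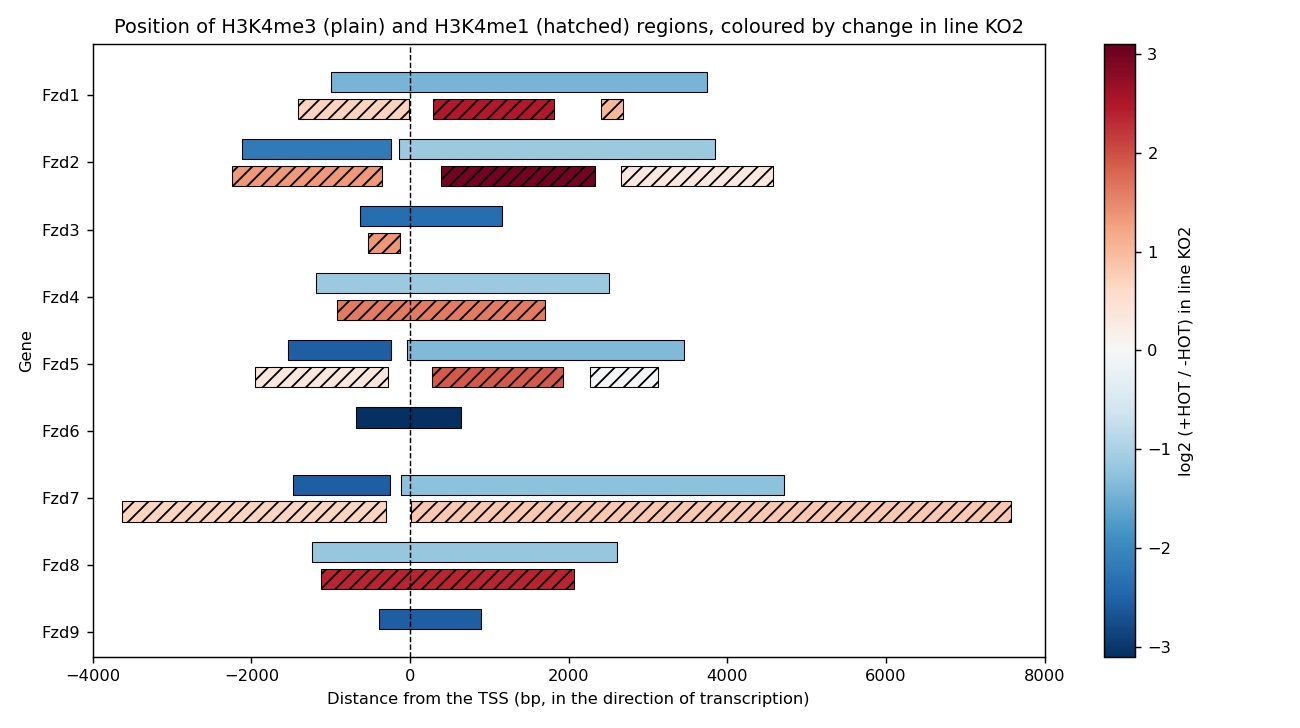
Position of the H3K4me3 regions (plain bars) and H3K4me1 regions (hatched bars) of 9 Frizzled genes, as distance from the TSS (bp, in the direction of transcription), coloured by the log2 ratio of +HOT over -HOT in KO2. H3K4me3 bars are blue throughout, darkest at Fzd6 (-3.45), and H3K4me1 bars are darkest red just downstream of the TSS of Fzd2 (2.99).

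The rest of the Wnt pathway was described by lists of 78 genes in 10 roles. The lists were chosen with earlier results of these data known, and most genes named below are the extremes of their role. The counts and p-values below are therefore descriptions, not tests of the pathway. A promoter H3K4me3 region was found for 71 genes and tested for 67. Of these 67, 60 fell (limma, adjusted p under 0.05), 7 did not pass and none rose (with the median log2 ratio set to 0 in each line, 20 fell and 7 rose), and 83.9% of the 12214 genes tested fell. The median log2 ratio of the 67 genes was -1.39, against -1.19 over all genes. All 67 log2 ratios were below 0, as were 13519 of those of the 13527 tested promoter regions. Of the 67, 31 lay above the median change of all regions. An H3K4me1 region at the promoter was tested for 50 genes, of which 30 rose, 2 fell and 18 did not pass, against 75.9% that rose and 0.702% that fell of 9978 genes. The median log2 ratio of the 50 genes was 0.88, against 1.13 over all genes. With the median log2 ratio set to 0 in each line, 20 of the 50 rose. Some regions met the read minimum through +HOT cells alone in a line, which favours a rise.

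Among the Wnt ligands 14 of 14 tested promoters fell, beside 83.9% of all genes tested. Their median log2 ratio was -2.06, against -1.19 over all genes. Wnt4, which acts in kidney and gonad development, had the lowest ratio (-2.76 ± 0.39 SE, adjusted p = 1.61e-10), with 15 reads in +HOT and 63.0 in -HOT cells of KO1, and 14 in +HOT and 171 in -HOT cells of KO2. Wnt5a, the main ligand of planar polarity, had the highest ratio (-0.87, adjusted p = 0.0318), with 570 in +HOT and 926 in -HOT cells of KO1, and 1641 in +HOT and 3396 in -HOT cells of KO2. H3K4me1 at Wnt5a rose the most of all tested pathway genes (log2 ratio 2.42 ± 0.24, adjusted p = 2.98e-06), with 153 in +HOT and 26 in -HOT cells of KO1, and 229 in +HOT and 45 in -HOT cells of KO2. H3K4me1 at Wnt1, which patterns the midbrain, fell (-1.12, adjusted p = 0.00261). Of the genes for ligand release, Porcn, which attaches the lipid, was lowest in H3K4me3 (-1.50, adjusted p = 0.000287) and Wls, which carries Wnts to the membrane, was highest (-0.93, adjusted p = 0.0235).

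Of the co-receptors 5 of 6 fell in H3K4me3 and 5 of 5 rose in H3K4me1, beside 83.9% and 75.9% of all genes tested. Lrp5, which also serves the Fzd4 and Norrin complex, fell most in H3K4me3 (-1.59 ± 0.39, adjusted p = 0.000119), with 146 reads in +HOT and 325 in -HOT cells of KO1, and 217 in +HOT and 895 in -HOT cells of KO2. Lrp6 fell less (-0.83, adjusted p = 0.0399), with 364 in +HOT and 553 in -HOT cells of KO1, and 954 in +HOT and 1996 in -HOT cells of KO2. The Wnt receptor Ryk was highest and did not pass (-0.67, adjusted p = 0.0912). H3K4me1 rose at Lrp5 (1.52, adjusted p = 0.000363), at Lrp6 (1.14, adjusted p = 0.00236), at Ryk (0.83, adjusted p = 0.0394, with 1.3 in KO1 and 0.36 in KO2) and most at Ptk7, a co-receptor of planar polarity (1.88, adjusted p = 4.29e-05). At Ptk7 the H3K4me1 minimum was met through +HOT cells alone in both lines, with 16 (KO1) and 17 (KO2) reads in -HOT cells. The same held for the co-receptor Ror2 in KO1 (18 reads in -HOT cells). Tspan12, the partner of Fzd4 in Norrin signalling, fell in H3K4me3 (-1.60, adjusted p = 0.00011), and no region carried the name of Ndp, which encodes Norrin.

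Of the genes that set the amount of Frizzled at the surface, 5 of 8 fell in H3K4me3, beside 83.9% of all genes tested. Lgr6, a receptor for R-spondins, was lowest (-2.29, adjusted p = 4.68e-08), and Rspo2, an R-spondin, was highest and did not pass (-0.60, adjusted p = 0.13). Znrf3, the ligase that removes Frizzled from the membrane, fell in H3K4me3 (-1.88, adjusted p = 6.17e-06), and its H3K4me1 had a log2 ratio of 0.26 (adjusted p = 0.56). H3K4me1 at Rspo2 rose (1.35, adjusted p = 0.000571). Of the secreted inhibitors 9 of 9 fell in H3K4me3, from Wif1 (-2.52, adjusted p = 2.99e-09) to Sfrp2, a soluble relative of the Frizzled ligand domain (-0.90, adjusted p = 0.0277). In H3K4me1, Sfrp2 had the highest ratio of these inhibitors (1.02, adjusted p = 0.04, with 0.12 in KO1 and 1.93 in KO2) and Wif1 the lowest (-0.64, adjusted p = 0.081).

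Inside the cell, 10 of 11 cytoplasmic genes fell in H3K4me3, beside 83.9% of all genes tested. Axin2, a scaffold of the destruction complex and itself a target of the pathway, fell by a log2 ratio of -1.76 ± 0.39 (adjusted p = 2.08e-05), with 225 reads in +HOT and 614 in -HOT cells of KO1, and 466 in +HOT and 1975 in -HOT cells of KO2. Ctnnb1, which encodes β-catenin, fell less (-0.87, adjusted p = 0.0333), with 304 in +HOT and 484 in -HOT cells of KO1, and 900.0 in +HOT and 1881 in -HOT cells of KO2. Apc, another scaffold of that complex, was lowest (-2.19, adjusted p = 1.71e-07), and the kinase gene Csnk1a1 was highest and did not pass (-0.54, adjusted p = 0.168). H3K4me1 rose at Axin2 (1.26, adjusted p = 0.00103), at Ctnnb1 (1.61, adjusted p = 0.000129) and most at Dvl2, a Dishevelled gene (2.01, adjusted p = 1.48e-05), and it was lowest at Dvl1 (0.17, adjusted p = 0.698). At Dvl2 the read minimum was met through +HOT cells alone in KO1 (19 reads in -HOT cells).

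Of the nuclear genes 6 of 8 fell in H3K4me3, beside 83.9% of all genes tested. The transcription factor gene Tcf7 had the lowest ratio of all tested pathway genes (-2.83 ± 0.39, adjusted p = 7.01e-11), with 25 reads in +HOT and 150.0 in -HOT cells of KO1, and 43 in +HOT and 383 in -HOT cells of KO2. Bcl9l, a cofactor of β-catenin, was highest and did not pass (-0.69, adjusted p = 0.0855). H3K4me1 was highest at Tcf7l1 (2.17, adjusted p = 1.03e-05) and lowest at Bcl9 (-0.12, adjusted p = 0.806). In KO1 the Tcf7l1 region met the read minimum through +HOT cells alone (15 reads in -HOT cells). Of the planar polarity genes 7 of 7 fell, from the cadherin gene Celsr3 (-2.40, adjusted p = 1.26e-08) to Prickle1 (-1.03, adjusted p = 0.0127). H3K4me1 rose at Vangl2, which works with Fzd3 and Fzd6 (1.58, adjusted p = 0.000202), and fell at Celsr3 (-1.15, adjusted p = 0.0203, with -0.25 in KO1 and -2.04 in KO2). Smo, the Hedgehog transducer and a structural relative of the Frizzled family, fell in H3K4me3 (-0.85, adjusted p = 0.0358) and rose in H3K4me1 (1.37, adjusted p = 0.000621). Its H3K4me3 was 352 reads in +HOT and 536 in -HOT cells of KO1, and 974 in +HOT and 2088 in -HOT cells of KO2.

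**Figure D5:**
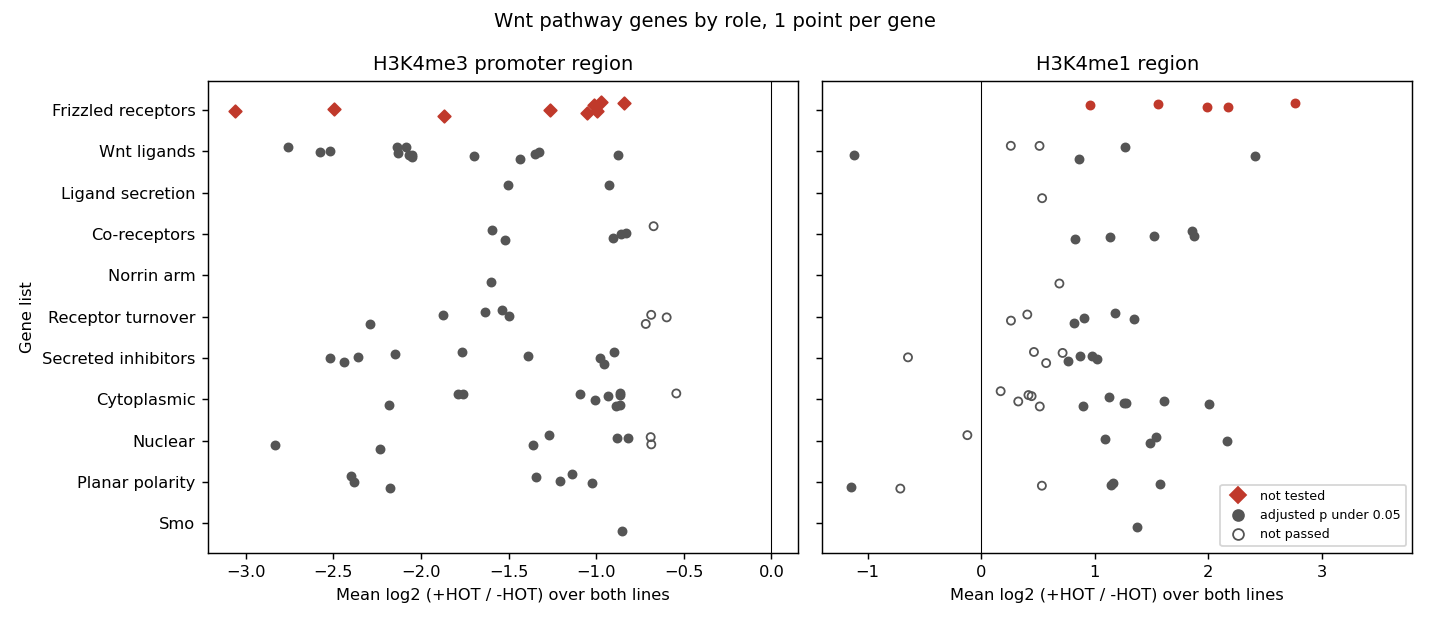
Mean log2 ratio (+HOT over -HOT, both lines) of the Frizzled genes and of the other Wnt pathway genes by role, for the promoter H3K4me3 region on the left and the H3K4me1 region on the right, with 1 point per gene. Filled points passed the limma test and open points did not, and the Frizzled H3K4me3 values (diamonds) were not tested. All H3K4me3 points lie below 0 on this uncentred scale, and Fzd6 at -3.06 lies below Tcf7 at -2.83 and Wnt4 at -2.76.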

How the data were processed

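H3K4me3 and H3K4me1 ChIP-seq of KO cells was analysed. The authors trimmed reads with Trim_Galore, aligned them to mm9 with BWA and SAMtools, removed duplicates with Picard, called regions with Macs2 (narrow for H3K4me3, broad for H3K4me1) and annotated them with Homer. The authors deposited 5 of the 8 libraries as raw read counts per region, both H3K4me1 libraries of KO1 among them, and the other 3 as a signal, the count divided by a coverage factor (1.33 and 1.01 for H3K4me3 -HOT of KO1 and KO2, 1.1 for H3K4me1 +HOT of KO2), which gave whole reads for 100% of values within 0.001. No spike-in scaling is described, so scaled values are relative to coverage. The reads of H3K4me1 in KO1 were left unscaled, with 7939532 in +HOT and 6157647 in -HOT cells within regions. The part of depth in these KO1 ratios was not tested. The authors' log2 fold changes, lists of lost and gained regions and motif p-values were not used, nor were the fill values on chromosome 1 of the KO1 H3K4me1 table.

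Here log2(value + 1) was fitted with limma 3.58.1 (R 4.3.3) over all regions that exceeded 20 reads in either condition of both lines, with the line as a block and Benjamini-Hochberg adjustment over all regions (threshold 0.05). The limma script was tested on simulated data. A log2 ratio on this scale understates the change of low regions. The limma fit was kept because raw and scaled libraries stand side by side. edgeR 4.0.16 and DESeq2 1.42.0 on the recovered reads, with the authors' scaling, were alternatives, as were a pseudocount of 5, no read minimum or more than 50 reads, centring, a trend, no block, each line alone, at least 50% overlap and the region nearest to the TSS. A count over the Frizzled H3K4me1 regions with more than 20 reads in -HOT cells of both lines was added after the data had been seen. Each line alone was read against a log2 ratio of 0.58. Samples of the same number come from the same line, and their deviations correlated at 0.59 (H3K4me3) and 0.58 (H3K4me1). The limma prior for H3K4me3 was so strong that all regions share 1 standard error. Each condition of a line has 1 library, so the only spread is that between the 2 lines, and limma pools it over regions. A printed SE is therefore not the spread of 1 gene alone. For H3K4me3 the limma p-value depends only on the mean log2 ratio, not on how well the 2 lines agreed at a gene.

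The promoter region of a gene was the one with the highest mean -HOT value, and its H3K4me1 region the one sharing most bases with it. Named were all Frizzled genes, for each role the genes with the lowest and highest mean log2 ratio, Lrp5, Lrp6, Axin2, Ctnnb1, Smo and Ash2l, and the 3 genes closest to Fzd6 in its 4 H3K4me3 values (Rik, Gm and Olfr genes left out). Members and lists were chosen with earlier results of these data known. Region and promoter sequences came from the mm9 genome with GENCODE vM1.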

Additional observations from a re-analysis of the deposited data

Results flagged for a closer look

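The H3K4me1 region inside the gene body of Fzd1 at chr5:4755531-4755809 (2407 to 2685 bp from the TSS) moved in opposite directions in the lines. It had 2 reads in +HOT and 8 in -HOT cells of KO1 (log2 ratio -1.59), and 17.3 in +HOT and 8 in -HOT cells of KO2 (log2 ratio 1.02). The difference between the lines was not tested, and the region lay below the minimum of more than 20 reads.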

How the results depend on the processing

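With the median log2 ratio set to 0 in each line, the median over the Frizzled promoter regions was 0.29, and the sign turned at Fzd1 (0.0815), Fzd2 (0.37), Fzd4 (0.50), Fzd5 (0.29), Fzd7 (0.33) and Fzd8 (0.35), but not at Fzd3, Fzd6, Fzd9 or the upstream regions. The same setting turned H3K4me3 at Wnt5a (0.47), Wls (0.42), Lrp6 (0.51), Ryk (0.67), Ptk7 (0.49), Rspo2 (0.75), Sfrp2 (0.45), Dvl1 (0.25), Dvl2 (0.41), Csnk1a1 (0.80), Ctnnb1 (0.48), Tcf7l1 (0.46), Bcl9 (0.0718), Bcl9l (0.66), Vangl2 (0.21), Prickle1 (0.32) and Smo (0.49), by construction, since these lay above the H3K4me3 median, and H3K4me1 at Dvl1 (-0.0205), which lay below the H3K4me1 median. It left 20 of the 60 Wnt pathway falls in H3K4me3, and 7 genes passed as higher, among them Ryk (adjusted p = 0.0316), Rspo2 (0.0166), Csnk1a1 (0.00969) and Bcl9l (0.0352). With the region whose centre is nearest to a TSS the median over the Frizzled genes was -1.87, since this choice takes the upstream regions of Fzd2, Fzd5 and Fzd7. With 1 line alone it was -1.36 (KO2) and -0.79 (KO1). Without the replicate block limma called 0 Wnt pathway falls in H3K4me3 (5 at an unadjusted p under 0.05), while edgeR with the block called 65 and DESeq2 64. Without the block 12 Wnt pathway genes rose in H3K4me1, and with no read minimum 11 (31 at an unadjusted p under 0.05). With the median log2 ratio set to 0 in each line 20 rose, and with DESeq2 21, against 30 in the main fit. The Frizzled H3K4me1 regions that rose numbered 4 to 7 over all alternatives, with 5 without the block and 4 of 6 where more than 20 reads were required in -HOT cells of both lines, a choice made after seeing the data. With no read minimum 44 Wnt pathway genes fell in H3K4me3, and the calls were lost at Wnt5a, Wls, Lrp6, Ptk7, Sfrp2, Dvl1, Dvl2, Ctnnb1, Tcf7l1, Vangl2, Prickle1 and Smo (adjusted p from 0.0575 to 0.15). In H3K4me1, the calls at Ryk, Sfrp2, Celsr3, Wnt1 and Axin2 (adjusted p from 0.0568 to 0.0892 at Axin2) were lost under no block, no read minimum and DESeq2, at Lrp6 under no block (0.0652) and no read minimum (0.0748), and at Lrp5 (0.0515) and Smo (0.0543) under no read minimum. Centring also lost the limma calls in H3K4me1 at Ryk (adjusted p = 0.151), Sfrp2 (0.316) and Celsr3 (0.0711). The cause of these differences was not tested. Depth limits the small regions of Fzd1 and Fzd3, with at most 30 reads.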
